A study of Rattus norvegicus with 6 samples.

Results

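Mitochondrially encoded respiratory chain genes were examined in GH3 cells, a rat pituitary tumour line that makes growth hormone and prolactin, with and without thyrotropin-releasing hormone (TRH), the hypothalamic peptide that drives thyrotropin and prolactin release by binding a G protein-coupled receptor on pituitary cells. The genes were chosen by Ensembl identifier, and 9 of 9 identifiers were found among the 18413 genes of the deposited count table: mt-Nd1, mt-Nd2, mt-Nd4, mt-Nd5, mt-Co1, mt-Co2, mt-Co3, mt-Atp6 and mt-Cyb. The control group was 3 libraries of untreated wild-type GH3 cells and the TRH group 3 libraries of the same line given 100 nM TRH, for a time that the sources used here do not give. Both groups were grown in F10 medium with 15% horse serum and 2.5% fetal bovine serum. GH3 is an established tumour line, so its level of mitochondrial RNA is that of a dividing tumour cell and not of a normal lactotroph. Reads assigned to genes numbered 43504159 to 46320376 per control library and 45027093 to 52134239 per TRH library. The labels name no separate cultures behind the 3 samples of each group. The p-values therefore reflect only how these samples vary, and that variation may be technical.

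Mitochondria carry a small circular genome whose protein-coding genes all specify core subunits of the respiratory chain and of ATP synthase. All the genes described here are read from the heavy-strand promoter region as one long precursor, which is cut at the transfer RNAs that lie between most of the genes, and the resulting messenger RNAs are polyadenylated inside the organelle. Because the precursor is shared, differences in level between these messenger RNAs are generally attributed to processing and stability. Pituitary hormone cells use the ATP so made for hormone synthesis and for the calcium-dependent release of secretory granules.

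The 9 transcripts had lower mean levels in the TRH libraries than in the controls. The range among the controls was wider than that difference, and none of the 9 passed the test. Their summed share of gene counts was 4.57%, 2.73% and 2.28% in control replicates 1, 2 and 3. In TRH replicates 1, 2 and 3 it was 2.47%, 1.92% and 2.13%. The groups overlapped, because TRH replicate 1 lay above control replicate 3, and control replicate 1 stood well above all the others. The mean share was 3.19 ± 1.22% in controls and 2.18 ± 0.279% with TRH (mean ± SD, n = 3 per group), a difference of -1.02 percentage points. Without control replicate 1 the difference was -0.33 percentage points. Counting error was small beside this spread: the 95% Wilson interval of the highest share ran from 4.567% to 4.580%, and it covers counting error only. In bulk RNA, fewer cells of a type and less RNA per cell cannot be told apart, and a lower share of mitochondrial RNA cannot be told from more RNA of the other genes.

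**Figure D1:**
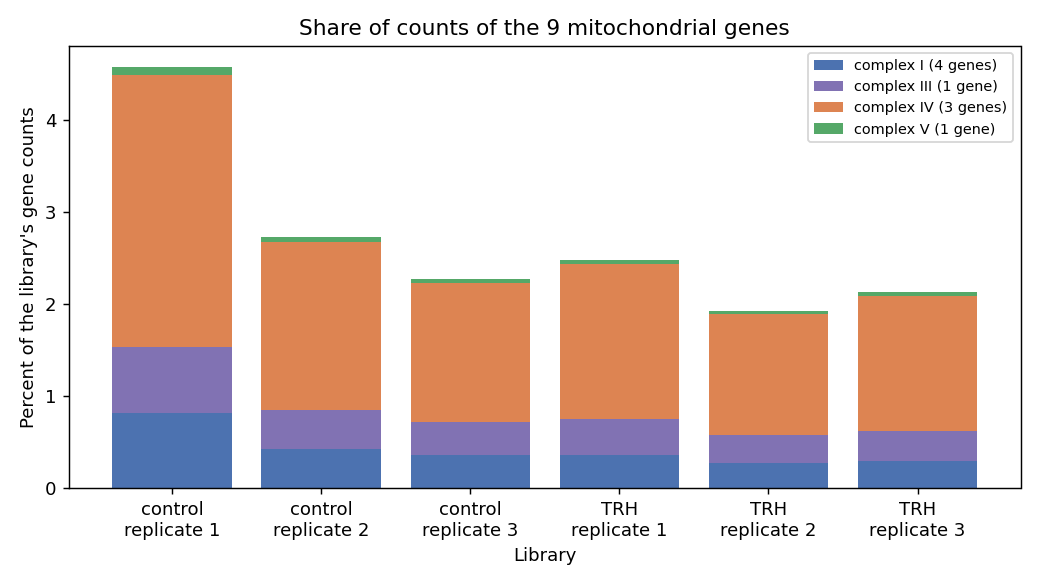
Stacked bars give the percent of each library's gene counts taken by the mitochondrial genes, grouped by the respiratory complex they belong to, for 3 control and 3 TRH libraries. Control replicate 1 reaches 4.57%, and the other 5 libraries lie between 1.92% and 2.73%.

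Complex IV, cytochrome c oxidase, took the most counts in every library and complex V the fewest. The complex IV subunits held 2.10 ± 0.758% of the control counts and 1.49 ± 0.183% of the TRH counts (mean ± SD, n = 3 per group). The complex I subunits took 0.534 ± 0.245% in controls and 0.312 ± 0.0462% with TRH, and for this sum the groups did not overlap, though only just: the lowest control stood at 0.3652% and the highest TRH library at 0.3637%. On the TPM scale the complex I groups overlapped, at 0.528% of summed TPM in the lowest control and 0.535% in the highest TRH library. Cytochrome b of complex III, at 0.4997 ± 0.193% in controls and 0.338 ± 0.0491% with TRH, overlapped between the groups. The complex I sum, over 4 genes, exceeded complex III, 1 gene, in 3 of 3 controls, and complex III exceeded complex I in 3 of 3 TRH libraries. The margin was narrow in control replicate 2 (0.423% against 0.421%) and control replicate 3 (0.365% against 0.358%). It was wider in control replicate 1 (0.815% against 0.720%). In TRH replicates 1, 2 and 3 complex I held 0.364%, 0.274% and 0.299%, against 0.393%, 0.298% and 0.322% for complex III. The sums cover only the genes examined here. The mitochondrial genes mt-Nd3, mt-Nd4l, mt-Nd6 and mt-Atp8 were not included, so the order of the complexes holds for these sums and not for whole complexes.

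The TPM unit scales every library to one fixed total and divides by gene length, so levels can be compared between genes. The order of mean TPM over the 6 libraries was mt-Co1, mt-Co3, mt-Cyb, mt-Co2, mt-Nd1, mt-Atp6, mt-Nd2, mt-Nd5 and mt-Nd4. This order was the same in 5 of 6 libraries. TRH replicate 1 was the exception, with mt-Cyb above mt-Co3 and mt-Nd1 above mt-Co2. Both of those pairs were close: the TPM of mt-Co3 was 1.03 ± 0.0734 times that of mt-Cyb, and the TPM of mt-Co2 was 1.05 ± 0.104 times that of mt-Nd1 (SD, n = 6 libraries), so neither pair differed beyond its spread. The neighbours mt-Atp6 and mt-Nd2 had a TPM ratio of 1.10 ± 0.0902, with mt-Atp6 the higher in 6 of 6 libraries. A clear step in TPM separated mt-Nd1 from mt-Atp6, by 3.22 ± 0.548 times (SD, n = 6). The order of TPM did not follow the order of the genes on the mitochondrial genome, where mt-Nd1 and mt-Nd2 come early and mt-Cyb last.

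**Figure D2:**
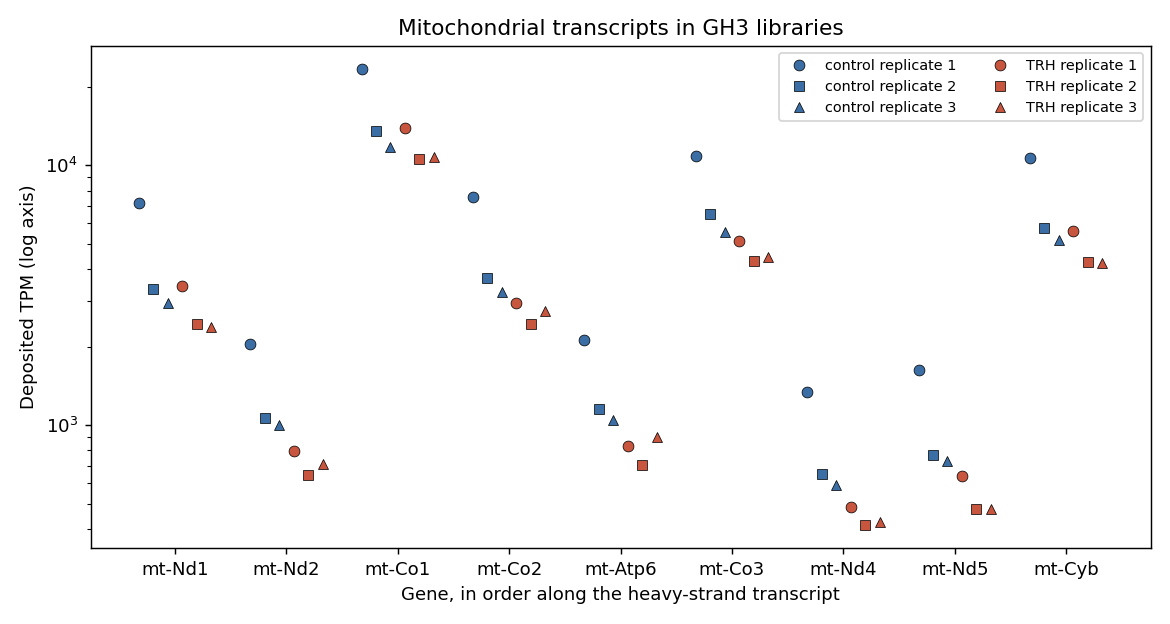
Points show the deposited TPM of each gene in each library on a log axis, with genes placed in their order along the heavy-strand transcript. Control replicate 1 is the highest library for 9 of 9 genes, and mt-Co1 exceeds mt-Nd4 by 17.5 to 28.7 times.

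Genes of complex I, which oxidises NADH and pumps protons across the inner membrane, spanned a wide range of levels. The messenger RNA of mt-Nd1 (ENSRNOG00000030644), a membrane subunit next to the quinone site, had 7136 TPM in control replicate 1, 3336 TPM in control replicate 2 and 2957 TPM in control replicate 3, against 3431, 2443 and 2395 TPM in TRH replicates 1, 2 and 3. The groups overlapped, since TRH replicate 1 exceeded control replicates 2 and 3. The edgeR log2 fold change of mt-Nd1 came to -0.63, with an SE of 0.30, a 95% interval from -1.32 to 0.07 and an edgeR adjusted p of 0.572.

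For mt-Nd2 (ENSRNOG00000031033), an antiporter-like proton-pumping subunit of complex I, the TPM values were 2057, 1066 and 1005 in control replicates 1, 2 and 3. They were 799, 642 and 708 TPM in the TRH replicates in the same order. Every TRH library lay below every control, with a gap that was small beside the distance of control replicate 1 from the other controls. Its log2 fold change came to -0.86, with an SE of 0.25, a 95% interval from -1.43 to -0.29 and an edgeR adjusted p of 0.397, the lowest adjusted p of the 9 genes.

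The remaining antiporter-like subunits of complex I gave the lowest levels and the most negative fold changes. mt-Nd4 (ENSRNOG00000029707) had 1345, 648 and 587 TPM in control replicates 1, 2 and 3 and 485, 412 and 426 TPM with TRH, a log2 fold change of -0.88 (SE 0.28, edgeR adjusted p = 0.426, 95% interval from -1.52 to -0.25). mt-Nd5 (ENSRNOG00000029971) had 1637, 768 and 729 TPM in controls and 638, 478 and 474 TPM with TRH, a log2 fold change of -0.90 (SE 0.28, edgeR adjusted p = 0.431, 95% interval from -1.56 to -0.25). In both genes the groups did not overlap and control replicate 1 stood alone at the top. The reading frame of mt-Nd4 overlaps that of mt-Nd4l on the same strand, and the sources used here do not state how reads in overlapping genes were counted, so its level is uncertain.

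Complex III passes electrons from ubiquinol to cytochrome c, and mt-Cyb (ENSRNOG00000031766) encodes its cytochrome b, the subunit that holds the quinone-binding sites. The TPM of mt-Cyb was 10672, 5729 and 5162 in control replicates 1, 2 and 3 and 5612, 4232 and 4211 in TRH replicates 1, 2 and 3. TRH replicate 1 lay above control replicate 3, so the groups overlapped. The log2 fold change came to -0.54, with an SE of 0.25, a 95% interval from -1.12 to 0.03 and an edgeR adjusted p of 0.559.

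Among the genes of complex IV, the oxidase that reduces oxygen, mt-Co1 (ENSRNOG00000034234) had the highest TPM of the 9 transcripts in every library. It ranked 2 by TPM among all genes in every library. It encodes the catalytic subunit that carries the heme and copper of the oxygen-binding site. Its levels were 23527, 13552 and 11816 TPM in control replicates 1, 2 and 3 and 13892, 10589 and 10759 TPM in TRH replicates 1, 2 and 3. In TPM, TRH replicate 1 was above control replicates 2 and 3, and the log2 fold change was the least negative of the 9, at -0.40 (SE 0.23, edgeR adjusted p = 0.623, 95% interval from -0.94 to 0.14).

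The other oxidase subunits separated by group. mt-Co2 (ENSRNOG00000030371), which carries the copper centre that receives electrons from cytochrome c, had 7527, 3699 and 3251 TPM in controls and 2951, 2463 and 2764 TPM with TRH. Its log2 fold change came to -0.74, with an SE of 0.28, a 95% interval from -1.38 to -0.10 and an edgeR adjusted p of 0.507. mt-Co3 (ENSRNOG00000030700), a core subunit without a redox centre, had 10863, 6480 and 5551 TPM in controls and 5122, 4279 and 4424 TPM with TRH. Its log2 fold change came to -0.65, with an SE of 0.22, a 95% interval from -1.16 to -0.15 and an edgeR adjusted p of 0.472. For both genes the highest TRH library lay below the lowest control.

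ATP synthase, complex V, was represented by mt-Atp6 (ENSRNOG00000031979), the membrane subunit that forms the proton path beside the rotating ring. It had 2131, 1158 and 1052 TPM in control replicates 1, 2 and 3 and 832, 702 and 902 TPM in TRH replicates 1, 2 and 3. The groups did not overlap in TPM. In CPM, counts scaled to library size but not to length, they were closer, at 429 in the lowest control and 423 in the highest TRH library. The log2 fold change came to -0.75, with an SE of 0.25, a 95% interval from -1.33 to -0.17 and an edgeR adjusted p of 0.474. Since mt-Atp6 shares bases with the mt-Atp8 reading frame, its count also depends on the counting rule.

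Taken across all genes, edgeR's quasi-likelihood test called 0 of 14050 genes at an adjusted p under 0.05, a share of 0%, and 0 of the 9 mitochondrial genes. At an unadjusted p under 0.05, 8.99% of all genes were reached, 6.95% being lower with TRH and 2.04% higher. The corresponding number among the mitochondrial genes was 6 of 9, all lower with TRH (mt-Nd2, mt-Nd4, mt-Nd5, mt-Co2, mt-Co3 and mt-Atp6). The CPM of these 6 genes also did not overlap between the groups, which held for 10.2% of all genes in the direction lower with TRH. The 9 genes share 1 precursor and 1 set of libraries, so they are not 9 independent observations. All 9 log2 fold changes were negative, as were those of 50.7% of all genes, and they ran from -0.90 to -0.40 with a median of -0.74, beside a median of 0.00 for all 14050 genes. The median was 0.07 for the 4163 other genes of 681 to 1830 bases, the length range of the 9. For the 312 other genes at least as abundant as mt-Atp6, the least abundant of the 9 by CPM, it was 0.11, and 12 of them were lower with TRH without overlap. DESeq2's Wald test, an alternative that called 106 genes (0.835% of those given an adjusted p), called 1 of the 9. This was mt-Nd2, at a DESeq2 adjusted p of 0.0498, with a DESeq2 log2 fold change of -0.85. Without control replicate 1 the call was lost and the log2 fold change was -0.48 (DESeq2 adjusted p = 0.186). Without TRH replicate 1, 2 or 3 the call was lost too, at log2 fold changes of -0.90, -0.74 and -0.91 (DESeq2 adjusted p = 0.223, 0.420 and 0.0950).

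One library set much of the size of these differences. Control replicate 1 was the highest of the 6 libraries in CPM for 9 of 9 genes, a place it held for 31.2% of all genes tested. Relative to the mean of the other 2 controls, its CPM was 1.72 times as high for mt-Co3, 1.76 times for mt-Co1 and 2.16 times for mt-Nd1. TRH replicate 2 was the lowest for 9 of 9 genes, against 10.6% of all genes tested, and both held together for 4.81% of all genes. The coefficient of variation of CPM was 34.5% to 48.6% among the controls and 9.06% to 18.5% among the TRH libraries over the 9 genes.

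Without control replicate 1 the fold changes kept their sign and shrank. The median log2 fold change of the 9 genes was then -0.34, beside 0.01 for all genes. mt-Nd2 had the most negative value, -0.49 (SE 0.12, edgeR adjusted p = 0.795, 95% interval from -0.77 to -0.20), followed by mt-Nd5 at -0.46 and mt-Nd4 at -0.44. mt-Co1 stood at -0.07 (95% interval -0.41 to 0.26), mt-Nd1 at -0.15 and mt-Cyb at -0.18, and their intervals included 0. The interval of mt-Co2, at -0.31, ended at 0.00. mt-Co3 was at -0.34 and mt-Atp6 at -0.39. edgeR again called 0 genes, and 5 of the 9 had an unadjusted p under 0.05, where 4.18% of all genes reached that level in the direction lower with TRH. Those 5 were mt-Nd2, mt-Nd4, mt-Nd5, mt-Co3 and mt-Atp6. The lower ends of the 9 intervals ran from -0.77 to -0.41 in this fit and from -1.56 to -0.94 with all 6 libraries.

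**Figure D3:**
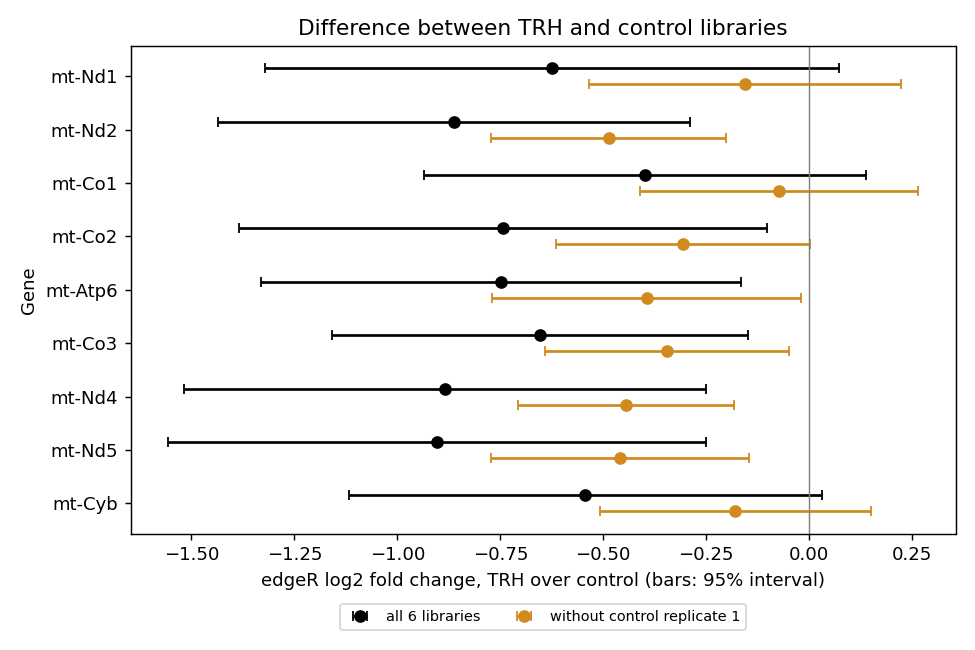
Points are edgeR log2 fold changes, TRH over control, and bars their 95% intervals, with all 6 libraries in black and without control replicate 1 in orange. With all libraries the values run from -0.90 to -0.40, and without control replicate 1 from -0.49 to -0.07.

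Libraries also differed by a trend with gene length, with control replicate 1 and TRH replicate 3 at its opposite ends. With each gene's log2 CPM centred on its 6-library average, the median of the longest 20% of genes minus that of the shortest 20% was highest in control replicate 1, at 0.33, lowest in TRH replicate 3, at -0.39, and between -0.16 and 0.14 in the rest. The median log2 deviation of the 9 mitochondrial genes was 1.01, 0.14 and -0.12 in control replicates 1, 2 and 3 and -0.20, -0.53 and -0.27 in TRH replicates 1, 2 and 3. Other genes of the same length range had a median of -0.08 in control replicate 1 and of 0.12 in TRH replicate 3. When offsets for gene length were added to the fit, the 9 genes had a median log2 fold change of -0.88.

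Within the mitochondrial counts, the shares of mt-Co1, mt-Nd2, mt-Nd4, mt-Nd5, mt-Co2 and mt-Co3 separated the libraries by group. Those of mt-Nd1, mt-Atp6 and mt-Cyb overlapped. This measure does not depend on library scaling, because each gene is set against the other 8 within a library. It does not take out a trend with gene length. How often shares within sets of other genes separate the groups was not computed. mt-Co1 took 46.9%, 49.3% and 48.7% of the counts of the 9 genes in control replicates 1, 2 and 3. In TRH replicates 1, 2 and 3 it took 53.1%, 52.5% and 52.1%. Control replicate 1 was the lowest of the 6 libraries and stood apart from the other controls here too, in the direction that widens the difference between the groups. The other controls were also below every TRH library. The mean share was 48.3 ± 1.24% in controls and 52.6 ± 0.489% with TRH (mean ± SD, n = 3 per group), a separation larger than the spread within either group. This gene was singled out after its values were seen, and no test was made of it.

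The shares of the complex I genes mt-Nd2, mt-Nd4 and mt-Nd5 in the 9-gene counts were lower in every TRH library than in any control. mt-Nd5 took 3.58 ± 0.280% in controls and 2.80 ± 0.0820% with TRH, mt-Nd2 took 2.72 ± 0.0964% and 2.17 ± 0.129%, and mt-Nd4 took 2.22 ± 0.153% and 1.77 ± 0.103% (mean ± SD, n = 3 per group). mt-Nd1, from the same complex, did not separate, at 7.95 ± 0.738% and 7.59 ± 0.474%. The shares of mt-Co2 and mt-Co3 were also lower with TRH without overlap, at 6.18 ± 0.404% against 5.44 ± 0.468% and at 11.5 ± 0.490% against 10.5 ± 0.515%. For mt-Co2 the lowest control, 5.94%, and the highest TRH library, 5.93%, almost touched. mt-Cyb held 15.6 ± 0.193% and 15.5 ± 0.389%, and mt-Atp6 1.88 ± 0.0289% and 1.62 ± 0.273%, both with overlap. Of the genes with lower shares, only mt-Nd5, at 1830 bases, was longer than mt-Co1, at 1545 bases. The others were shorter, from 684 to 1378 bases. Whether gene length bears on the shares was not tested. Since the shares of a library sum to a fixed total, a higher share of mt-Co1 lowers the others by construction.

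**Figure D4:**
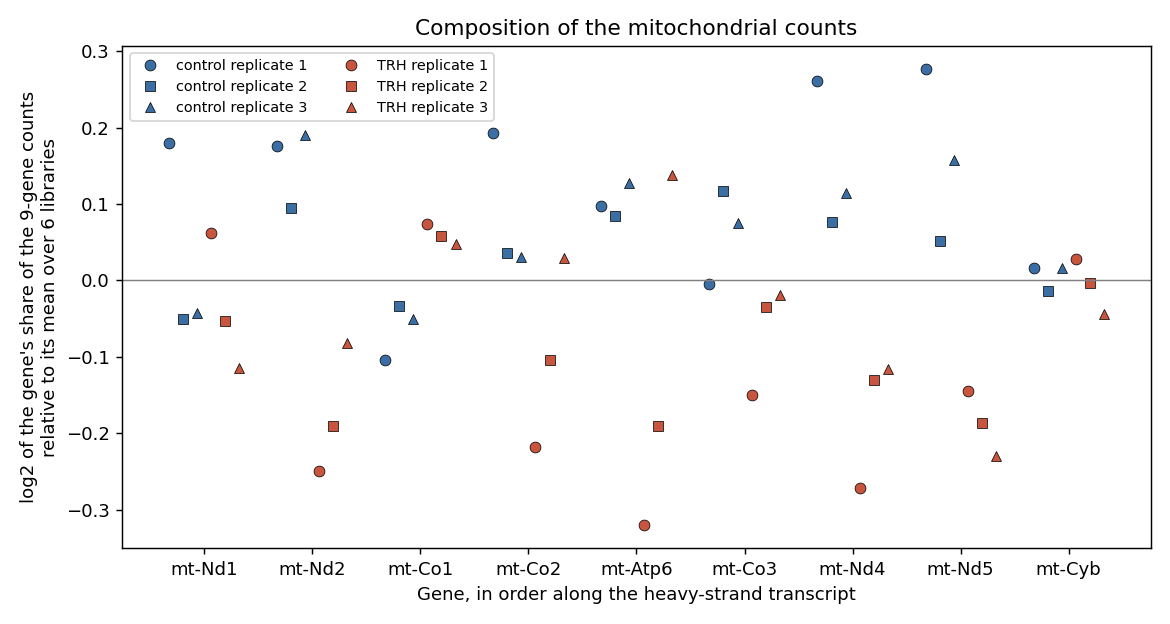
Each point is the log2 of a gene's share of the counts of the 9 genes in a library, relative to that gene's mean share over the 6 libraries. The TRH libraries lie above all controls for mt-Co1 and below all controls for mt-Nd2, mt-Nd4, mt-Nd5, mt-Co2 and mt-Co3.

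Ratios between single genes avoid that constraint. Of the 36 TPM ratios between pairs of the 9 genes, 16 separated the groups without overlap and the rest overlapped. Of those 16, 7 involved mt-Co1, while the ratio of mt-Nd1 to mt-Co1 overlapped. Each of the 16 held mt-Co1, mt-Nd2, mt-Nd4 or mt-Nd5. The 36 ratios are built from the same 9 values per library, so they are not independent. How often ratios among other genes separate the groups was not computed, so 16 of 36 has no background to be read against. The TPM of mt-Co1 was 3.13, 3.66 and 3.63 times that of mt-Co2 in control replicates 1, 2 and 3 and 4.71, 4.30 and 3.89 times in TRH replicates 1, 2 and 3. Against mt-Co3, a subunit of the same oxidase, the mt-Co1 ratio was 2.13 ± 0.0372 in controls and 2.54 ± 0.151 with TRH (mean ± SD, n = 3 per group). Within complex I, the TPM ratio of mt-Nd1 to mt-Nd4 was 5.16 ± 0.136 in controls and 6.21 ± 0.765 with TRH, also without overlap, while that of mt-Nd1 to its neighbour mt-Nd2 overlapped, at 3.18 ± 0.266 and 3.83 ± 0.456. The pairs given here with their ratios were picked after the values were seen and carry no test. The ratio of the highest to the lowest TPM among the 9 was 19.5 ± 1.79 in controls and 26.5 ± 1.84 with TRH.

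The gene lengths deposited with the table ranged from 681 bases for mt-Atp6 to 1830 bases for mt-Nd5. For 4 of the 9 genes, mt-Nd1, mt-Nd2, mt-Nd4 and mt-Co3, the length left a remainder of 1 after division by 3. Several mammalian mitochondrial messenger RNAs end in an incomplete stop codon that polyadenylation completes, so a coding length need not be a whole number of codons. The nuclear genome of mammals also holds copies of mitochondrial sequence, and the sources used here do not state how reads matching both were counted.

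Outside the 9, the pattern over the 6 libraries was matched most closely by ENSRNOG00000009766 and ENSRNOG00000033299, of 3428 and 204 bases. Pearson's r of their log2 CPM with the mean log2 CPM of the 9 genes was 0.997 and 0.996 over 6 libraries, the highest among 5805 genes with a mean log2 CPM of at least 5, and it was chosen as the highest. The swing of ENSRNOG00000009766 was small, from 60.1 to 75.0 CPM. ENSRNOG00000033299 had 820, 359 and 275 CPM in control replicates 1, 2 and 3 and 277, 205 and 230 CPM with TRH, and its log2 fold change was -1.03 (SE 0.36, edgeR adjusted p = 0.481). Both identifiers have no symbol in the tables used here. Whether either is a further mitochondrial gene, read from the same precursor or sharing reads with the 9, was therefore not checked. Neither can be taken as an independent match.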

How the data were processed

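RNA from 6 GH3 samples was sequenced on an Illumina instrument after library construction from 1.3 µg of total RNA, per the labels' protocols. HISAT2 and bedtools are named, without version or role, per the submitters' processing notes. Genome build, annotation and strand setting: not given in the sources used here. One table deposited by the authors holds read counts for each Ensembl gene, and a second repeats it (100% of cells equal) with gene length, FPKM and TPM. The authors' FPKM and TPM were recomputed from the counts and lengths to rounding error.

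Names of the 9 genes come from the list that defined them. The reference table (RefSeq, GRCr8) holds an Ensembl identifier for 0 genes, so lists of other mitochondrial, nuclear respiratory chain and marker genes are not analysed here. The genes printed are the 9 members and the 2 others most like them. The members and lists were chosen with earlier results of these data known.

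All genes were fitted with edgeR 4.0.16 (R 4.3.3; filterByExpr, TMM scaling, quasi-likelihood F-test, two-group design, Benjamini-Hochberg adjustment, threshold 0.05), and 14050 genes, among them all 9 members, passed the filter. All fold changes divide TRH by control, and their standard errors come from the coefficient and its F value. Values described as shares, ratios or orders carry no test. DESeq2 1.42.0, limma 3.58.1, other scalings, filters, offsets and left-out libraries were alternatives. Libraries of a group differed beyond sampling noise, with a chi-square per degree of freedom of 13.7 to 110.0 over genes with at least 20 counts per pair.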

Additional observations from a re-analysis of the deposited data

How the results depend on the processing

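The log2 fold changes of the 9 genes were negative in 25 of 25 alternatives each. With all 6 libraries, scaling with DESeq2 size factors or without the 9 genes, other filters, limma voom and limma on log2(TPM + 1) or log2(TPM + 0.1) left all 9 outside the threshold. edgeR's 0 calls (1263 at an unadjusted p under 0.05) became 106 with DESeq2's Wald test, 119 with its independent filtering set at 0.05, and 1 without control replicate 1 and TRH replicate 3 together. Leaving out single libraries gave 0 to 1 calls in edgeR and 10 to 169 in DESeq2 (25, 169 and 50 without control replicates 1, 2 and 3, and 10, 20 and 43 without TRH replicates 1, 2 and 3), the DESeq2 fits being added after seeing the data. DESeq2 put mt-Nd2 past the threshold at a log2 fold change of -0.85 (adjusted p 0.0498, or 0.0470 with independent filtering at 0.05). With single libraries left out, it did so without control replicate 2 and without control replicate 3: mt-Nd2 at -0.97 and -1.03, mt-Nd4 at -1.01 and -1.08, mt-Nd5 at -1.04 and -1.09, and, without control replicate 3 alone, mt-Co3 at -0.83. Leaving out each library in edgeR gave a median log2 fold change of the 9 genes from -0.92 to -0.34 and a difference in their share of counts from -1.48 to -0.33 percentage points, both smallest without control replicate 1. Why the calls differ between tools was not tested.

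A replicate block for equal-numbered libraries in edgeR gave 0 calls, and the median log2 fold change of the 9 was -0.66. The difference in share between equal-numbered libraries was -2.10, -0.81 and -0.14 percentage points. The labels do not tie equal numbers to a shared culture or day, so equal numbers were taken as names only. Deviations of equal-numbered libraries correlated at 0.42, -0.41 and -0.17. With 3 libraries per group these values can neither show nor exclude pairing. Depth set little limit, the lowest count among the 9 genes being 13277.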
